A study of Homo sapiens with 12 samples.

Results

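The 225 antisense RNAs described here were chosen by a symbol ending in -AS, or -AS and a digit, and by a mean log2 value of at least 5 over the 12 arrays, among 14118 genes with a named probe set. Genes named for HOX loci were left out. Of 479 antisense symbols with a probe set, 254 lay under that threshold. The sense gene named in the symbol had a probe set of its own for 154 of the 225, and these form the antisense-sense pairs below. The arrays were Affymetrix Human Gene 2.0 ST arrays of total RNA from 3 colorectal cancer cell lines, RKO, SW48 and HCT116. Per the labels all 3 lines carry wild-type p53, and each was either given 10 µM Nutlin-3a for 8 h or kept untreated, with 2 arrays per group. Nutlin-3a is a small molecule that blocks the binding of MDM2 to p53, so that p53 is stabilised. The labels do not say whether the duplicates were separate cultures, so p-values measure only the spread between these arrays, which may be technical. The extraction text names thyroids and the growth text names HCT116 cells only, while the cell line field names each line.

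A natural antisense RNA is transcribed from the strand opposite a protein-coding gene, either across that gene or from a start next to the gene's own promoter. Some such RNAs act on the partner gene in cis through chromatin, RNA pairing or competition between the polymerases, some act elsewhere, and many have no known role. In p53-responsive cells both coding genes and long noncoding RNAs are among the genes that p53 induces.

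Array medians over all probe sets lay between 4.97 and 5.05, so a mean of 5 is about the middle of an array. Replicate arrays correlated at 0.997 to 0.998 over all genes, and the median absolute difference between duplicates was 0.111 to 0.119 over the antisense RNAs. Of 24 listed p53 targets 14 were measured, and 13 of the 14 were higher with Nutlin-3a in each line at an adjusted p under 0.05. Of 11 colorectal epithelial markers 9 were measured, and 8 of the 9 had a mean of at least 5. The mean of these 9 markers was lower in RKO (5.92 with Nutlin-3a, 5.99 untreated) than in SW48 (7.73 and 7.71) or HCT116 (7.29 and 7.24). Between untreated RKO and untreated HCT116 the gap was widest for EPCAM (6.03 against 11.02) and KRT19 (6.22 against 10.13). VIL1 (5.71 against 5.83) and CDX1 (5.73 against 5.87) differed little. CDX2 (7.52 against 7.38) and CEACAM5 (4.67 against 4.37) were not lower in RKO. Among 7 thyroid markers 5 were measured, 3 of them at a mean of at least 5, and the mean of the 5 lay between 5.13 and 5.35 in every group. Of 5 immune markers CD68 (9.28) and CD14 (3.97) were measured, with a mean of both of 7.26 to 7.32 in RKO, 6.23 to 6.39 in SW48 and 6.27 to 6.28 in HCT116, and 1 of the 3 measured fibroblast and 0 of the 2 measured endothelial markers had a mean of at least 5. The part of other cell types or of the RNA source in the results was not tested.

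The median antisense RNA had a mean log2 value of 6.04, against 6.47 over all genes and 7.19 over the measured sense genes; these are probe set values with no correction for length. The members just inside the threshold were FMR1-AS1, BCAR3-AS1 and COCH-AS1, each at 5.02. UBOX5-AS1 at 4.99, DACT3-AS1 at 4.98 and ZNF32-AS2 at 4.97 lay just outside it. Because the rule used the mean over all arrays, 20 members had a line mean under 5, and 4 of them were under 5 in 2 of the lines. For 12 members the mean of the other 2 lines was under 5 without the highest line, which was SW48 for 8 of them, RKO for 2 and HCT116 for 2. Of those described further on, MYO16-AS1, GLIS3-AS1, HAS2-AS1, RAB11B-AS1 and TMEM51-AS1 passed the threshold through SW48 and RBM12B-AS1 through RKO. Where their difference of that line from the others is given, it is therefore given with no test. The highest means belonged to PRRT3-AS1 (9.17), PITPNA-AS1 (9.01), FGD5-AS1 (8.97), C10orf95-AS1 (8.89) and ASB16-AS1 (8.75). RefSeq classes 220 of the 225 as long noncoding RNA and 5 as antisense RNA. The RefSeq spans of antisense RNA and sense gene overlap for 185 of the members and do not for 39, and 1 has no RefSeq entry of its sense gene.

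Few antisense RNAs changed with Nutlin-3a within a line. In RKO 2 of the 225 passed an adjusted p of 0.05, 1 higher and 1 lower (0.889%, against 2.02% of all genes, 1.23% higher and 0.793% lower). In SW48 5 passed, 2 higher and 3 lower (2.22%, against 3.12% of all genes, 1.38% higher and 1.74% lower). In HCT116 9 passed, 5 higher and 4 lower (4.0%, against 5.11% of all genes, 3.08% higher and 2.03% lower). Each of these shares was below that of all genes tested. Over the 3 lines 15 antisense RNAs were called in at least 1 line, 14 of them in 1 line and PAXIP1-AS2 in both RKO and HCT116. The median log2 difference of the 225 was 0.02 in RKO, 0.03 in SW48 and 0.01 in HCT116, beside -0.01 over all genes in each line. At an unadjusted p under 0.05 the antisense RNAs numbered 36 in RKO (16%, against 16.9% of all genes). They numbered 37 in SW48 (16.4%, against 16.2%) and 39 in HCT116 (17.3%, against 19.6%). These shares were close to those of all genes, which include genes with a mean under 5. They were below those of protein-coding genes with a mean of at least 5 (19.9% in RKO, 20% in SW48 and 24.5% in HCT116). When only genes with a mean of at least 5 were tested, 7 antisense RNAs were called in RKO, where 4.66% of the 10127 genes tested were called.

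**Figure D1:**
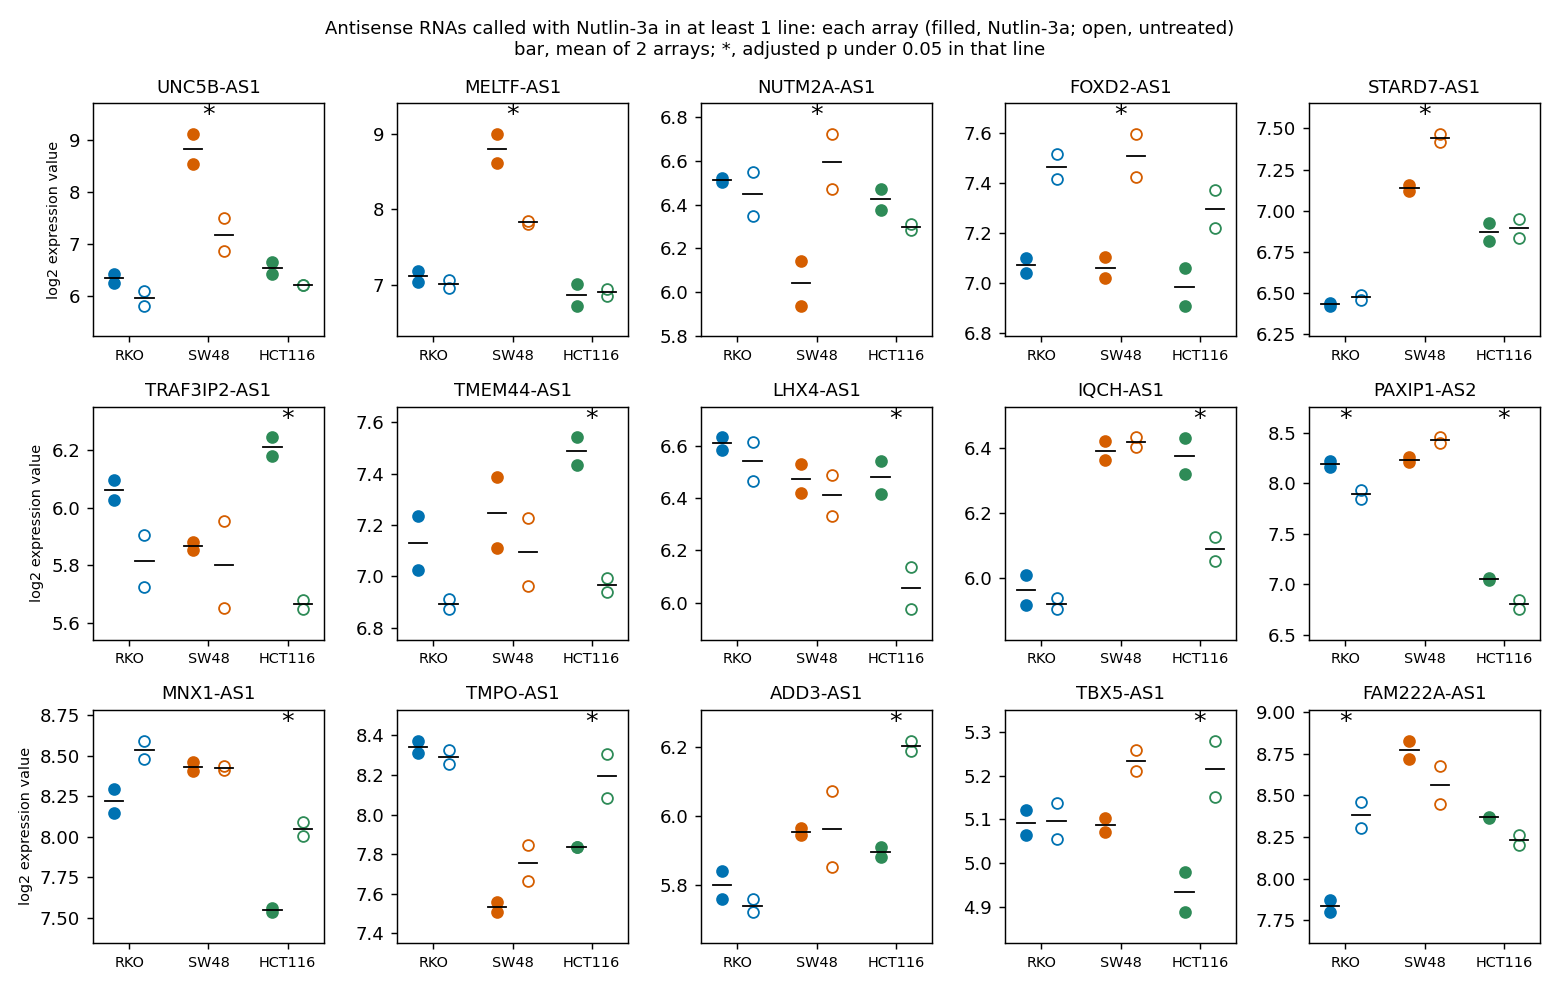
Log2 expression value (y axis, with its own range in each panel) of the 15 antisense RNAs called with Nutlin-3a in at least 1 line, by cell line (x axis). Each point is 1 array, filled for Nutlin-3a and open for untreated, bars are means of 2 arrays, and a star marks an adjusted p under 0.05 in that line. UNC5B-AS1 in SW48 shows the widest separation, with Nutlin-3a arrays at 8.53 and 9.10 against untreated arrays at 6.87 and 7.49.

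The largest rise was that of UNC5B-AS1, the antisense RNA of UNC5B, a netrin receptor that is a known p53 target. In SW48 UNC5B-AS1 stood at 8.53 and 9.10 in the Nutlin-3a arrays, against 6.87 and 7.49 in the untreated arrays. The groups did not overlap, although the untreated arrays lay well apart, and the rise was 1.64 ± 0.22 on the log2 scale (SE, n = 2 per group), or 3.11-fold, with an adjusted p of 0.00354. With only the SW48 arrays in the fit, the adjusted p was 0.0579. UNC5B-AS1 was at 6.43 and 6.25 in RKO with Nutlin-3a, against 6.10 and 5.82 untreated, a difference of 0.38 (adjusted p = 0.422). In HCT116 the values were 6.42 and 6.66 with Nutlin-3a, against 6.21 in both untreated arrays, a difference of 0.33 (adjusted p = 0.465). In all 3 lines the Nutlin-3a arrays thus lay above the untreated arrays. The test of an equal response in the 3 lines gave an adjusted p of 0.142, so a larger response of UNC5B-AS1 in SW48 is not shown. In cultures measured as bulk RNA, fewer cells expressing a gene and less RNA per cell cannot be told apart.

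UNC5B itself was called in SW48 and in HCT116. UNC5B was at 10.08 and 10.24 with Nutlin-3a in SW48, against 9.84 and 9.77 untreated, a rise of 0.35 ± 0.07 (SE; adjusted p = 0.0238). In HCT116 it was at 8.72 and 8.80 with Nutlin-3a and at 8.28 in both untreated arrays, a rise of 0.47 (adjusted p = 0.00401). In RKO UNC5B differed by 0.15 (adjusted p = 0.31). UNC5B-AS1 and UNC5B in SW48 were the only antisense-sense pair with both members called in the same line, and both were higher. The call of UNC5B, and so the pair, was lost with the arrays centred on their medians (adjusted p = 0.0542). It was also lost with a block for the replicate number (adjusted p = 0.103) and with only the SW48 arrays in the fit (adjusted p = 0.157). The SW48 call of UNC5B was lost without either SW48 untreated array or the second SW48 Nutlin-3a array (highest adjusted p 0.154). Over the 6 group means, the genes whose pattern was most like that of UNC5B-AS1 were MIR34A (Pearson's r 0.993), TACR1 (0.991) and NLGN3 (0.99). These values were picked as the highest among all genes over only 6 means. They are a description, and a shared control was not tested.

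MELTF-AS1 also rose in SW48; its sense gene MELTF encodes melanotransferrin, an iron-binding membrane glycoprotein. MELTF-AS1 was at 8.61 and 9.00 with Nutlin-3a in SW48, against 7.81 and 7.84 untreated, with no overlap. The rise was 0.98 ± 0.13 (SE), or 1.97-fold, with an adjusted p of 0.00336. In RKO MELTF-AS1 differed by 0.10 and in HCT116 by -0.03, and the arrays of the groups overlapped in both lines. The test of an equal response gave an adjusted p of 0.0728 for MELTF-AS1. MELTF was at 9.83 and 9.87 with Nutlin-3a in SW48 and at 9.75 and 9.68 untreated, a difference of 0.13 (adjusted p = 0.322). The calls of UNC5B-AS1 and MELTF-AS1 in SW48 held in each of the 12 fits that left out 1 array.

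The 3 antisense RNAs that fell in SW48 were NUTM2A-AS1, FOXD2-AS1 and STARD7-AS1. NUTM2A-AS1 was at 5.94 and 6.14 with Nutlin-3a in SW48, against 6.72 and 6.47 untreated, and fell by 0.55 (adjusted p = 0.0185). The NUTM2 genes are near-identical copies, so the locus behind the signal of NUTM2A-AS1 is uncertain, and the call was lost without the first SW48 array of either group (highest adjusted p 0.137). STARD7-AS1, whose sense gene encodes a lipid transfer protein, was at 7.15 and 7.12 in SW48 with Nutlin-3a and at 7.42 and 7.46 untreated. STARD7-AS1 fell by 0.30 (adjusted p = 0.0368), a call lost in 8 of the 12 fits that left out 1 array (adjusted p up to 0.171).

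FOXD2-AS1, whose sense gene encodes a forkhead transcription factor, fell by 0.45 in SW48 (adjusted p = 0.0231), where its values were 7.10 and 7.02 with Nutlin-3a and 7.59 and 7.42 untreated. In RKO FOXD2-AS1 was at 7.10 and 7.04 with Nutlin-3a, against 7.41 and 7.51 untreated (difference -0.39, adjusted p = 0.0548). In HCT116 it was at 7.06 and 6.91 with Nutlin-3a, against 7.37 and 7.22 untreated (difference -0.31, adjusted p = 0.077). All 6 Nutlin-3a arrays lay below the untreated arrays of their own line. FOXD2 differed by -0.19 in RKO, -0.07 in SW48 and -0.12 in HCT116, none of which passed the test. The SW48 call of FOXD2-AS1 was lost without SW48 untreated replicate 1 or either SW48 Nutlin-3a array (adjusted p up to 0.162). The genes most like FOXD2-AS1 over the 6 group means were PKP2 (Pearson's r 0.987), ZNF324B (0.978) and LOC91450 (0.976), again picked as the highest among all genes.

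In HCT116 the 5 rises were of 0.25 to 0.55 on the log2 scale. TRAF3IP2-AS1, antisense to the gene of an adaptor of interleukin-17 receptor signalling, was at 6.18 and 6.24 with Nutlin-3a, against 5.68 and 5.65 untreated, and rose by 0.55 (adjusted p = 0.0122). TMEM44-AS1 was at 7.54 and 7.43 with Nutlin-3a in HCT116, against 6.94 and 6.99 untreated, and rose by 0.52 (adjusted p = 0.0306). Both calls were lost without any 1 of the 4 HCT116 arrays, with adjusted p up to 0.0849 for TRAF3IP2-AS1 and 0.172 for TMEM44-AS1. LHX4-AS1, antisense to a LIM homeobox gene, rose by 0.42 (adjusted p = 0.0257), with 6.54 and 6.41 against 5.98 and 6.14 in the untreated arrays. LHX4-AS1 lost the call without HCT116 untreated replicate 1 or either HCT116 Nutlin-3a array (adjusted p up to 0.185). IQCH-AS1 rose by 0.28 (adjusted p = 0.0365), a call lost in 10 of the 12 fits that left out 1 array (adjusted p up to 0.216).

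PAXIP1-AS2, whose sense gene encodes a BRCT-domain protein of the DNA damage response, was the antisense RNA called in both RKO and HCT116. It was at 8.16 and 8.22 with Nutlin-3a in RKO, against 7.84 and 7.93 untreated, a rise of 0.30 (adjusted p = 0.0428). In HCT116 it was at 7.07 and 7.04 with Nutlin-3a, against 6.85 and 6.76 untreated, a rise of 0.25 (adjusted p = 0.0497). In SW48 the Nutlin-3a arrays lay below the untreated ones, at 8.21 and 8.25 against 8.45 and 8.40 (difference -0.19, adjusted p = 0.148). Both calls of PAXIP1-AS2 were lost in each of the 12 fits that left out 1 array, with adjusted p up to 0.211 in RKO and 0.228 in HCT116.

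Of the 4 antisense RNAs that fell in HCT116, MNX1-AS1 fell most; MNX1 encodes a homeobox transcription factor. MNX1-AS1 was at 7.53 and 7.56 with Nutlin-3a in HCT116, against 8.09 and 8.00 untreated, and fell by 0.50 ± 0.07 (SE; adjusted p = 0.0035). This call held in all 12 fits that left out 1 array. In RKO MNX1-AS1 was at 8.15 and 8.30 with Nutlin-3a, against 8.59 and 8.48 untreated (difference -0.31, adjusted p = 0.0606). In SW48 its Nutlin-3a arrays at 8.40 and 8.46 overlapped the untreated arrays at 8.41 and 8.44. MNX1 differed by -0.26 in HCT116 (adjusted p = 0.135).

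TMPO-AS1, antisense to the gene of a lamina-associated polypeptide, was at 7.84 in both Nutlin-3a arrays of HCT116, against 8.30 and 8.08 untreated, and fell by 0.36 (adjusted p = 0.0454). TMPO was at 9.51 and 9.60 with Nutlin-3a in HCT116, against 9.80 and 9.81 untreated, a difference of -0.25 (adjusted p = 0.0508), and its mean effect over the lines was -0.22 (adjusted p = 0.00369). ADD3-AS1 fell by 0.31 in HCT116 (adjusted p = 0.0459) and TBX5-AS1 by 0.28 (adjusted p = 0.0434). These 3 calls were weak against the choice of arrays. They were lost in 9 of the 12 fits that left out 1 array for TMPO-AS1 (adjusted p up to 0.27), in 10 for ADD3-AS1 (up to 0.176) and in all 12 for TBX5-AS1 (up to 0.261).

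FAM222A-AS1 fell in RKO; its sense gene had no probe set with a name. FAM222A-AS1 was at 7.88 and 7.80 with Nutlin-3a in RKO, against 8.46 and 8.30 untreated, with no overlap, and fell by 0.54 ± 0.09 (SE; adjusted p = 0.0154). In SW48 its Nutlin-3a arrays lay above the untreated ones, at 8.72 and 8.83 against 8.45 and 8.68 (difference 0.21, adjusted p = 0.27). In HCT116 they were at 8.36 and 8.37 against 8.20 and 8.26 (difference 0.13, adjusted p = 0.458). FAM222A-AS1 was the 1 antisense RNA of 225 for which the test of an equal response in the lines was called (0.444%, against 0.503% of all genes). The adjusted p of that test was 0.0464, and the response in RKO minus that in SW48 was -0.76 (adjusted p = 0.0415). The fall in RKO was lost without RKO untreated replicate 1 or either RKO Nutlin-3a array (adjusted p up to 0.11), and the test of equal response was lost in each of the 12 fits that left out 1 array (adjusted p up to 0.15).

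When the 3 lines were averaged, more antisense RNAs passed the test. Of the 225, 16 were called for the mean Nutlin-3a effect, 12 higher and 4 lower (7.11%, against 10.8% of all genes, 4.33% higher and 6.44% lower), and 28 were called when only genes with a mean of at least 5 were tested, of which 18.7% were called. The largest mean rises were those of UNC5B-AS1 (0.78, adjusted p = 0.0038), MELTF-AS1 (0.35, adjusted p = 0.0164) and GAS6-AS1 (0.34, adjusted p = 0.00829), followed by TMEM44-AS1 (0.30, adjusted p = 0.0182) and SH3BP5-AS1 (0.30, adjusted p = 0.0452). The means of UNC5B-AS1 and MELTF-AS1 rest mostly on SW48, as the per-line values above show. The falls were those of FOXD2-AS1 (-0.38, adjusted p = 0.0011), MNX1-AS1 (-0.27, adjusted p = 0.00291), FGD5-AS1 (-0.15, adjusted p = 0.0276) and TBX5-AS1 (-0.14, adjusted p = 0.0437). FOXD2-AS1 and FGD5-AS1 were lower in all 3 lines with no overlap of arrays. The mean calls of SH3BP5-AS1, FGD5-AS1 and TBX5-AS1 were lost in 9, 8 and 11 of the 12 fits that left out 1 array, and that of TMEM44-AS1 without HCT116 Nutlin-3a replicate 1 (adjusted p 0.0517).

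GAS6-AS1, UNC5B-AS1 and PCNA-AS1 were the 3 antisense RNAs called for the mean effect together with their sense gene, each time in the same direction. GAS6 encodes a ligand of the TAM receptor kinases and PCNA the sliding clamp of DNA replication. GAS6-AS1 was at 5.96 and 6.08 with Nutlin-3a in RKO against 5.86 and 5.81 untreated, at 6.10 and 6.06 in SW48 against 5.83 and 5.50, and at 6.89 and 7.02 in HCT116 against 6.43 and 6.63. The 3 lines thus moved in the same direction without overlap. GAS6 rose by 0.19 in the mean (adjusted p = 0.0091), with 0.20 in RKO, 0.07 in SW48 and 0.30 in HCT116, where it was called (adjusted p = 0.0244). The HCT116 call of GAS6 was lost without any 1 of the 4 HCT116 arrays (adjusted p up to 0.165). A further probe set of GAS6-AS1 differed from the one used, with -0.16 in RKO, 1.30 in SW48 and 0.57 in HCT116.

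PCNA-AS1 was at 7.43 and 7.51 with Nutlin-3a in RKO, against 7.12 and 6.93 untreated, a difference of 0.44 (adjusted p = 0.0752). Its mean effect over the lines was 0.27 (adjusted p = 0.027), a call lost in 6 of the 12 fits that left out 1 array (adjusted p up to 0.0742). PCNA was at 11.38 and 11.35 with Nutlin-3a in RKO, against 11.04 and 10.87 untreated, a rise of 0.41 (adjusted p = 0.0222) that was lost without RKO untreated replicate 2 or either RKO Nutlin-3a array (adjusted p up to 0.107). The mean rise of PCNA was 0.30 (adjusted p = 0.00148).

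Seen from the sense genes, 12 of the 154 were called in at least 1 line, 3 in RKO, 4 in SW48 and 7 in HCT116, 2 of them in more than 1 line. These were 1.95% of the sense genes in RKO (2.02% of all genes), 2.6% in SW48 (3.12%) and 4.55% in HCT116 (5.11%), at or below the general share. The largest change was that of PARD6G, which encodes a component of the Par cell polarity complex. PARD6G was at 8.94 and 9.03 with Nutlin-3a in HCT116, against 7.92 and 8.03 untreated, a rise of 1.01 ± 0.11 (SE), or 2.02-fold (adjusted p = 0.000607). In RKO it was at 8.12 and 7.93 with Nutlin-3a, against 7.47 in both untreated arrays, a rise of 0.55 (adjusted p = 0.0348) that was lost in 8 of the 12 fits that left out 1 array (adjusted p up to 0.163). In SW48 PARD6G was near the lower part of the arrays, at 4.69 and 4.38 with Nutlin-3a and at 4.60 and 4.45 untreated. PARD6G-AS1 differed by -0.10 in RKO, -0.05 in SW48 and -0.04 in HCT116, with overlapping arrays in every line.

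The other called sense genes moved by 0.50 or less on the log2 scale. Apart from UNC5B-AS1 in SW48, none of their antisense RNAs was called in the same line. In HCT116 PDCD4, which encodes an inhibitor of translation, rose by 0.42 (adjusted p = 0.0352) while PDCD4-AS1 differed by -0.000375. KDM4A, a histone demethylase gene, rose by 0.36 (adjusted p = 0.0235), with a difference of -0.09 for KDM4A-AS1. HEXA, a lysosomal hexosaminidase gene, rose by 0.35 (adjusted p = 0.0106), with 0.15 for HEXA-AS1. BOK, a BCL2 family gene, fell by 0.32 (adjusted p = 0.0486), with -0.18 for BOK-AS1. In SW48 FEZF1 rose by 0.46 (adjusted p = 0.00763) with 0.08 for FEZF1-AS1, TMEM51 fell by 0.50 (adjusted p = 0.0384) with 0.21 for TMEM51-AS1, and DIAPH3, a formin gene, fell by 0.31 (adjusted p = 0.048) with 0.08 for DIAPH3-AS1. In RKO LOXL1, of the lysyl oxidase family, rose by 0.36 (adjusted p = 0.037), with -0.09 for LOXL1-AS1. Each of these 8 sense calls was lost without at least 2 single arrays, with adjusted p up to 0.26.

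**Figure D2:**
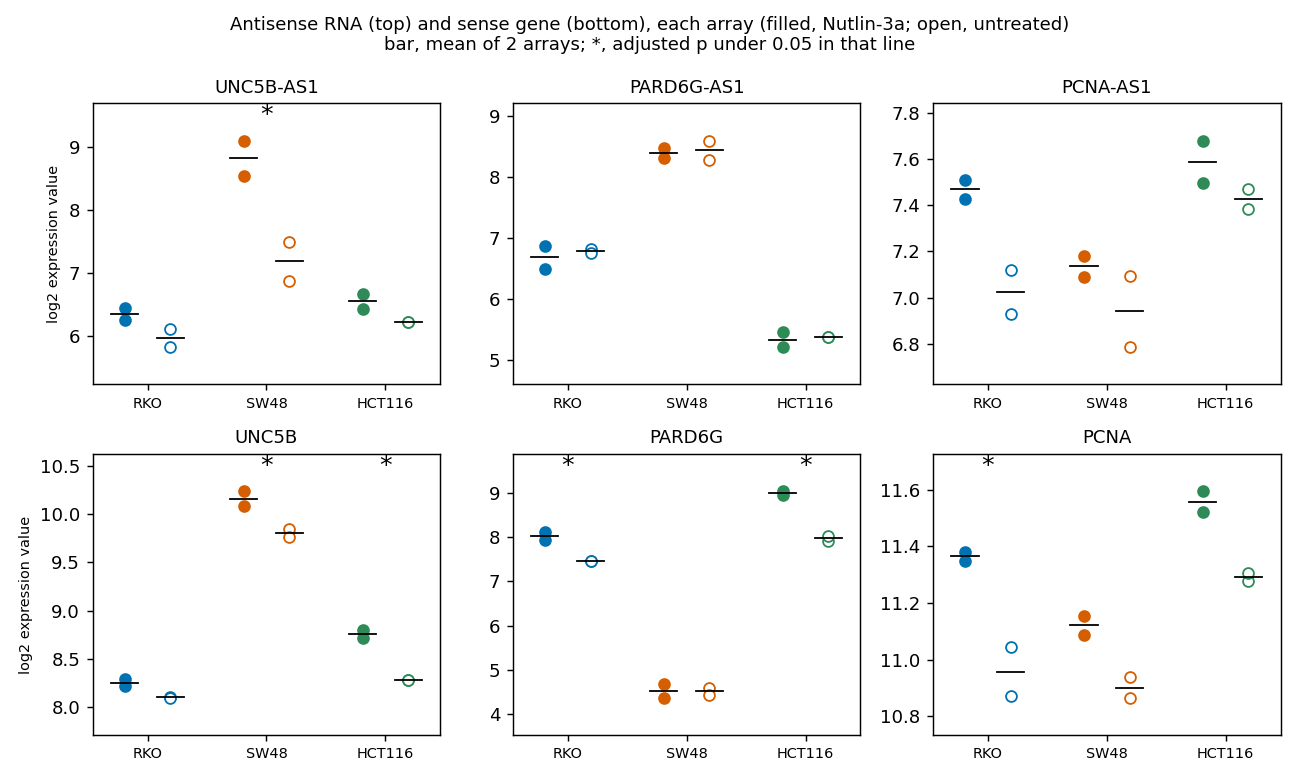
Log2 expression value (y axis, own range in each panel) of UNC5B-AS1, PARD6G-AS1 and PCNA-AS1 in the upper row and of their sense genes in the lower row, by cell line (x axis). Each point is 1 array, filled for Nutlin-3a and open for untreated, bars are means of 2 arrays, and stars mark an adjusted p under 0.05; PARD6G rose in RKO and HCT116 while the PARD6G-AS1 arrays overlapped.

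Across the 154 pairs the Nutlin-3a difference of the antisense RNA and that of its sense gene were weakly related, with Pearson's r of 0.0981 in RKO, 0.178 in SW48 and 0.177 in HCT116. These are descriptions across genes that share the same arrays, and genes are not independent replicates. Without the UNC5B pair the value in SW48 was 0.078, and without the PCNA pair that in RKO was 0.0554.

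A window of 300 bases around the RefSeq start, from 250 bases before it to 50 after, was listed for 178 of the 225 antisense RNAs. The repeat unit of the p53 consensus site was searched as the pattern RRRCWWGYYY of 10 bases. Here R is A or G, W is A or T and Y is C or T, so the pattern is the same on both strands. This unit, a part of the full site, was present in 12 of these 178 windows (6.74%), against 6.54% of 27305 promoter windows. The full site was not searched. Of the 23 antisense RNAs called with Nutlin-3a in a line or for the mean effect, 20 had a window. LHX4-AS1 was the 1 with this unit. A match or its absence describes these letters only.

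The differences between the untreated lines were larger than those with Nutlin-3a: the median absolute log2 difference of the 225 was 0.20 for RKO against HCT116, 0.24 for RKO against SW48 and 0.27 for SW48 against HCT116, whereas with Nutlin-3a it was 0.10 in RKO, 0.10 in SW48 and 0.11 in HCT116. Between untreated RKO and untreated HCT116, 91 of the 225 antisense RNAs were called, 49 higher and 42 lower in RKO (40.4%, against 41.5% of all genes). Between untreated RKO and untreated SW48, 101 were called, 31 higher and 70 lower in RKO (44.9%, against 44.7% of all genes). Between untreated SW48 and untreated HCT116, 111 were called, 79 higher and 32 lower in SW48 (49.3%, against 44.9% of all genes). Of all genes, these calls were 22.4% higher and 19% lower in RKO than in HCT116, 23.6% higher and 21.1% lower in RKO than in SW48, and 22.7% higher and 22.1% lower in SW48 than in HCT116. Of protein-coding genes with a mean of at least 5, 54% were called between RKO and HCT116, 58.3% between RKO and SW48 and 58.7% between SW48 and HCT116. The highest untreated mean was in RKO for 70 antisense RNAs, in SW48 for 93 and in HCT116 for 62. The range of the 3 untreated means was 0.43 on the log2 scale for the median antisense RNA, against 0.36 over all genes, and was at least 1 for 36 of the 225, beside 15% of all genes. The 3 comparisons share their untreated arrays, and the threshold on the mean keeps a gene that is high in 1 line, so these counts support nothing about antisense RNAs as a class.

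The largest line difference was that of MYO16-AS1, antisense to the gene of an unconventional myosin. It was at 9.46 and 9.75 in SW48 with Nutlin-3a and at 9.77 and 9.49 in untreated SW48. In RKO it was at 4.16 and 3.87 with Nutlin-3a and at 4.06 and 3.90 untreated, and in HCT116 at 3.91 and 3.87 with Nutlin-3a and at 4.10 and 3.91 untreated. MYO16-AS1 thus passed the threshold through its SW48 arrays, and in the other lines it lay near the lower quartile of the arrays (3.82 to 3.88). The difference of RKO minus SW48, both untreated, was -5.65 ± 0.14 (SE), and untreated SW48 minus untreated HCT116 was 5.62. MYO16 itself lay between 3.93 and 4.37 in all 12 arrays. The difference of MYO16 was 0.19 between SW48 and HCT116 (adjusted p = 0.167) and -0.35 between RKO and SW48 (adjusted p = 0.0179), the second lost without RKO untreated replicate 1 or SW48 untreated replicate 1.

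SH3PXD2A-AS1 was also highest in SW48; SH3PXD2A encodes TKS5, a scaffold of invadopodia. SH3PXD2A-AS1 was at 5.09 and 5.33 in untreated RKO, at 9.92 and 9.83 in untreated SW48 and at 5.38 and 5.24 in untreated HCT116. Without Nutlin-3a, RKO minus SW48 was -4.67 (adjusted p = 3.96e-10) and untreated SW48 minus untreated HCT116 was 4.56 (adjusted p = 6.02e-10), while RKO minus HCT116 was -0.11 (adjusted p = 0.501). SH3PXD2A differed much less, at 5.92 and 6.04 in untreated RKO, 7.21 and 6.85 in untreated SW48 and 6.56 and 6.54 in untreated HCT116. Its differences were -1.05 between RKO and SW48 (adjusted p = 1.49e-05) and 0.48 between SW48 and HCT116 (adjusted p = 0.00327). RKO and HCT116 did not differ beyond their spread for SH3PXD2A-AS1, while they did for SH3PXD2A, which was lower in RKO (difference -0.57, adjusted p = 0.0012).

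In the PARD6G pair the lines had opposite orders. PARD6G-AS1 was at 6.83 and 6.77 in untreated RKO, at 8.60 and 8.29 in untreated SW48 and at 5.38 in both untreated HCT116 arrays. PARD6G was at 7.47 in both untreated RKO arrays, at 4.60 and 4.45 in untreated SW48 and at 7.92 and 8.03 in untreated HCT116. The antisense RNA was thus highest and the sense gene lowest in SW48, with no overlap of lines for either. Untreated SW48 minus untreated HCT116 was 3.07 ± 0.14 (SE) for PARD6G-AS1 (adjusted p = 6.02e-08) and -3.45 ± 0.11 for PARD6G (adjusted p = 3.7e-09). Untreated RKO minus untreated SW48 was -1.65 for PARD6G-AS1 and 2.95 for PARD6G, and RKO minus HCT116 was 1.42 and -0.51, all past the test.

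GLIS3-AS1 and GLIS3, the gene of a Krüppel-like zinc finger factor, were also opposed. GLIS3-AS1 was at 4.75 and 5.20 in untreated RKO, at 7.21 and 7.40 in untreated SW48 and at 4.68 and 4.34 in untreated HCT116. GLIS3 was at 6.50 and 5.96 in untreated RKO, at 4.71 and 4.69 in untreated SW48 and at 5.52 and 5.36 in untreated HCT116. Between untreated RKO and untreated SW48 the difference was -2.33 for GLIS3-AS1, which was over the threshold through its SW48 arrays, and 1.53 for GLIS3 (adjusted p = 2.66e-05). Between RKO and HCT116 both were higher in RKO, by 0.46 for GLIS3-AS1 (adjusted p = 0.0388) and 0.79 for GLIS3 (adjusted p = 0.0029), so the opposite directions were those of SW48 against each of the others.

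**Figure D3:**
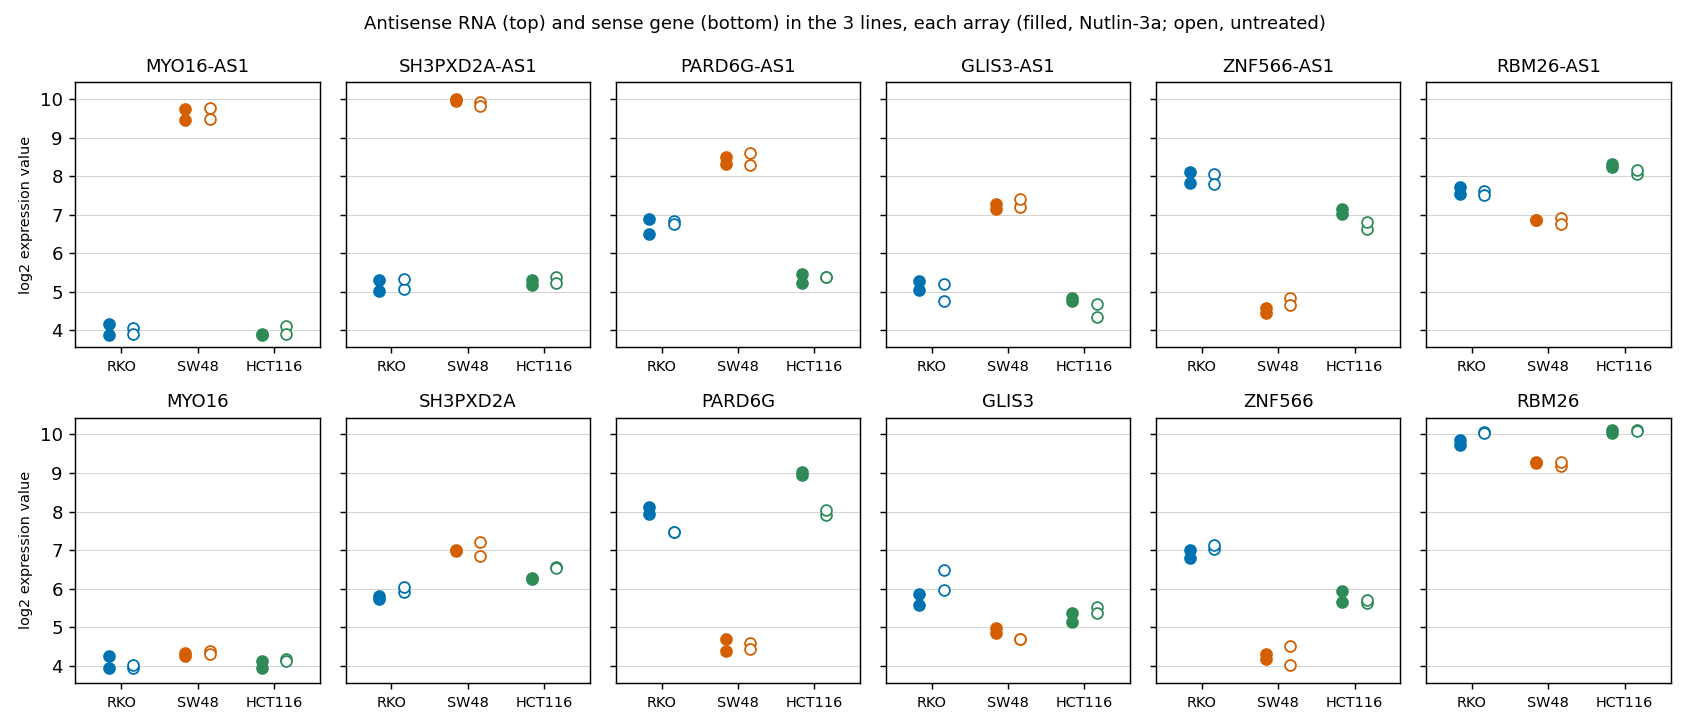
Log2 expression value (y axis, shared by all panels) of 6 antisense RNAs in the upper row and of their sense genes in the lower row, by cell line (x axis). Each point is 1 array, filled for Nutlin-3a and open for untreated; MYO16-AS1 and SH3PXD2A-AS1 are high in SW48, PARD6G-AS1 and PARD6G run in opposite orders, and ZNF566-AS1 and ZNF566 are both low in SW48.

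ZNF566-AS1 and the zinc finger gene ZNF566 moved together between the lines. ZNF566-AS1 was at 8.06 and 7.79 in untreated RKO, at 4.85 and 4.66 in untreated SW48 and at 6.63 and 6.80 in untreated HCT116. ZNF566 was at 7.04 and 7.13 in untreated RKO, at 4.51 and 4.03 in untreated SW48 and at 5.63 and 5.70 in untreated HCT116. Both were thus ordered RKO, HCT116, SW48 without overlap. Untreated RKO minus untreated SW48 was 3.17 ± 0.13 (SE) for ZNF566-AS1 (adjusted p = 1.81e-08) and 2.82 ± 0.15 for ZNF566 (adjusted p = 1.71e-07). Untreated RKO minus untreated HCT116 was 1.21 and 1.42, and untreated SW48 minus untreated HCT116 was -1.96 and -1.39, all past the test.

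RBM26-AS1 and the RNA-binding protein gene RBM26 were both lowest in SW48. RBM26-AS1 was at 7.61 and 7.52 in untreated RKO, at 6.91 and 6.75 in untreated SW48 and at 8.06 and 8.15 in untreated HCT116. RBM26 was at 10.06 and 10.04 in untreated RKO, at 9.17 and 9.29 in untreated SW48 and at 10.12 and 10.08 in untreated HCT116. Untreated SW48 minus untreated HCT116 was -1.28 for RBM26-AS1 (adjusted p = 5.38e-07) and -0.87 for RBM26 (adjusted p = 2.97e-06). Between RKO and HCT116 RBM26-AS1 was lower in RKO (difference -0.55, adjusted p = 0.000286), whereas RBM26 differed by -0.05 (adjusted p = 0.629). A further, dim probe set of RBM26-AS1 with a mean of 3.79 differed by -0.18 between SW48 and HCT116.

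The RefSeq starts of ZNF566-AS1 and ZNF566 lie 66 bases apart and those of RBM26-AS1 and RBM26 54 bases apart, on opposite strands, so that 1 window holds both starts of a pair. Starts within 300 bases of each other were found for 28 of the 225 antisense RNAs, 17 of them in measured pairs. The windows of the ZNF566 and RBM26 pairs are shown beside those of the antisense RNAs with the largest line difference and the largest Nutlin-3a rise, MYO16-AS1 and UNC5B-AS1, to show how they differ in CG dinucleotides, written in capitals. All are RefSeq sequences of GRCh38.p14, from 250 bases before to 50 after the antisense start, 5′ to 3′ on the strand of the antisense RNA. That of ZNF566-AS1 is chr19:36489377-36489676 (+), that of RBM26-AS1 chr13:79406059-79406358 (+), that of MYO16-AS1 chr13:109167254-109167553 (-) and that of UNC5B-AS1 chr10:71218179-71218478 (-).
ZNF566-AS1: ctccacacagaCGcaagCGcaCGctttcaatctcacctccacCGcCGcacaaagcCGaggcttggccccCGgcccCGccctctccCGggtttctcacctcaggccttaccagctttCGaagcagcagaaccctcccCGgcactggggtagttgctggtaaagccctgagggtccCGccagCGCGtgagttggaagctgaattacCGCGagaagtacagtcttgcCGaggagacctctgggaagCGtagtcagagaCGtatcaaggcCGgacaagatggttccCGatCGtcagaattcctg
RBM26-AS1: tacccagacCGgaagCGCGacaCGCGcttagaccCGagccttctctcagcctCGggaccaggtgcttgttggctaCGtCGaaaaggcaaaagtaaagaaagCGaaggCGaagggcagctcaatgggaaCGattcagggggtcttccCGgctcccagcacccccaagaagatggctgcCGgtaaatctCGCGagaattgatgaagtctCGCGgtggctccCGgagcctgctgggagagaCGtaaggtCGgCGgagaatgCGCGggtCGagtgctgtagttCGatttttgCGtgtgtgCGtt
MYO16-AS1: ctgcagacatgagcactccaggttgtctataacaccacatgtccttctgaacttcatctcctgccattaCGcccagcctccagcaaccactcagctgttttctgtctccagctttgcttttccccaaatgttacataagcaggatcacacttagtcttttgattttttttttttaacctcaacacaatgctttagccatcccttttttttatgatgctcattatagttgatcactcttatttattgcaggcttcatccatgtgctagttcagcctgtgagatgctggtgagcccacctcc
UNC5B-AS1: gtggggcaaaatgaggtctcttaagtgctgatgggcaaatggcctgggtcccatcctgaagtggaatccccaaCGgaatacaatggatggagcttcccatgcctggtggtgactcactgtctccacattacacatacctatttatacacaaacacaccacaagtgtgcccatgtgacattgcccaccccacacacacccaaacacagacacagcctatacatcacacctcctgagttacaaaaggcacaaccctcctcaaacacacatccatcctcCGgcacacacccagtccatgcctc
The window of ZNF566-AS1 holds 22 CG dinucleotides and that of RBM26-AS1 28, whereas that of MYO16-AS1 holds 1 and that of UNC5B-AS1 2. The median was 14 over all 27305 windows, 22.5 over the 178 antisense RNAs with a window and 34 over the 28 whose starts lie within 300 bases of the sense start.

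Among the 17 pairs with starts within 300 bases, the antisense and sense differences between untreated lines were related with a Pearson's r of 0.644 for RKO against HCT116, 0.784 for RKO against SW48 and 0.771 for SW48 against HCT116. Spearman's rho was 0.515, 0.48 and 0.525 for these comparisons in the same order. Without the ZNF566 pair Pearson's r was 0.507, 0.215 and 0.616, so the value for RKO against SW48 rests on that pair. Both genes were called in 6, 4 and 5 of the 17 pairs, with the same direction in 5, 3 and 5. URB1-AS1 and URB1 went in opposite directions between RKO and HCT116 (-0.37 and 0.23) and between RKO and SW48 (-0.44 and 1.13). Over the 83 pairs whose spans overlap with starts apart, Pearson's r was 0.209, 0.0514 and 0.107 and Spearman's rho 0.189, 0.101 and 0.241. Over the 8 pairs that do not overlap, with starts apart, Pearson's r was 0.774, 0.0861 and 0.313 and Spearman's rho 0.786, -0.429 and 0.429, so the value for RKO against HCT116 was above that of the pairs with close starts. For the 46 pairs without both starts in the promoter table Pearson's r was -0.00512, 0.223 and 0.038 and Spearman's rho 0.00549, 0.207 and 0.299. With Nutlin-3a the 17 pairs with close starts showed no such relation in RKO (Pearson's r -0.164) or SW48 (-0.0769). In HCT116 Pearson's r was 0.306, and -0.0242 without the MNX1 pair. The points share their arrays, the comparisons share untreated groups, and the difference between the layouts was not tested.

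**Figure D4:**
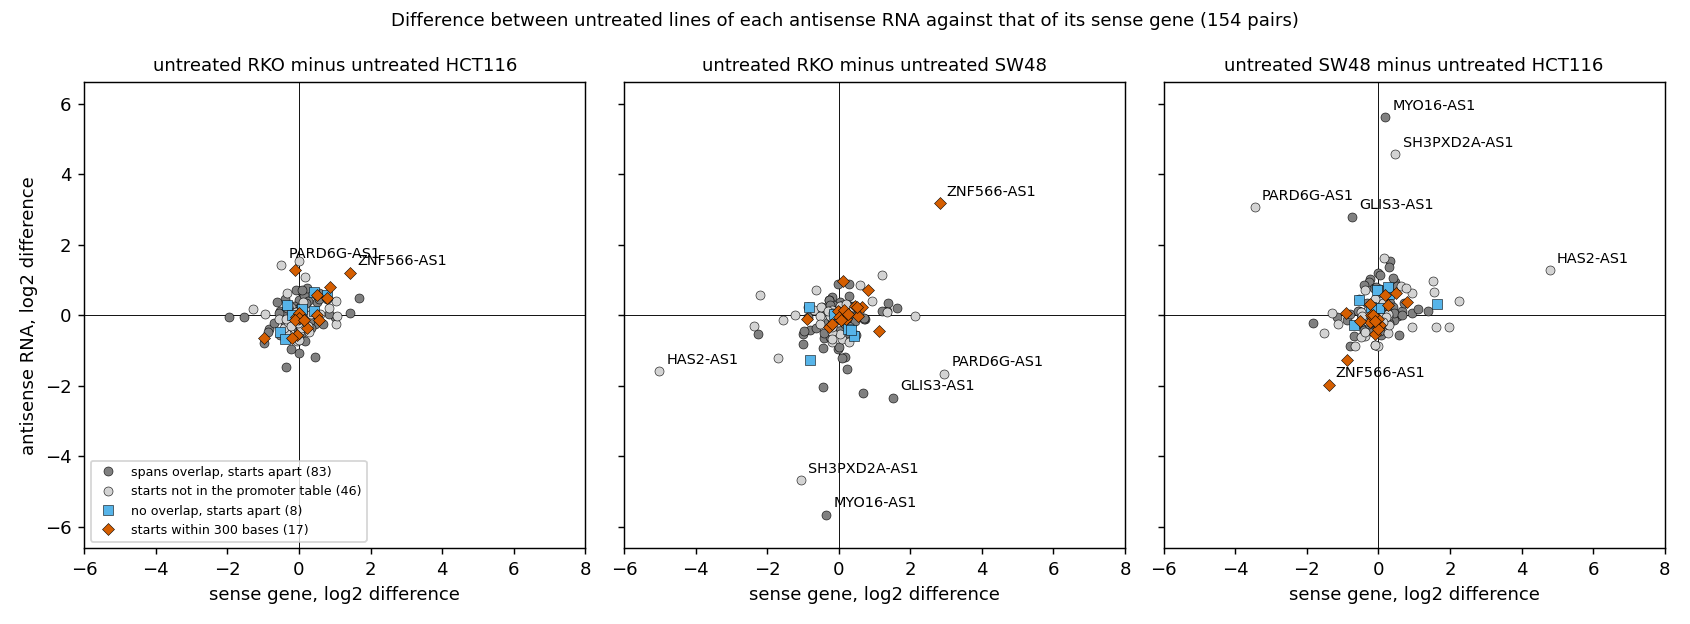
Log2 difference of the antisense RNA (y axis) against that of its sense gene (x axis) for the 154 pairs in the 3 comparisons of untreated lines. Each point is 1 pair, coloured by the RefSeq layout of the starts; ZNF566-AS1 lies far out along the line of equal change, PARD6G-AS1 and GLIS3-AS1 lie on opposite sides of 0 from their sense genes for RKO against SW48, and MYO16-AS1 lies far from 0 on the y axis alone.

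Where antisense RNA and sense gene were both called between untreated lines, most had the same direction. Between RKO and HCT116 both were called in 37 of the 154 pairs, 26 in the same and 11 in opposite directions. Between RKO and SW48 these numbers were 45, 28 and 17, and between SW48 and HCT116 they were 44, 32 and 12. Over all 154 pairs, called or not, the sign was the same in 90 for RKO against HCT116. It was the same in 77 for RKO against SW48 and in 89 for SW48 against HCT116. Among antisense RNAs called in a pair, the sense gene was also called for 60.7% between RKO and HCT116. This share was 65.2% between RKO and SW48 and 58.7% between SW48 and HCT116. Among sense genes called, the antisense RNA was also called for 50.7%, 53.6% and 50.6% in the same order. Some pairs, as those of HAS2-AS1 and GLIS3-AS1, passed the threshold through SW48, so these counts are a description. The sense genes called numbered 73 of 154 between RKO and HCT116 (47.4%, against 41.5% of all genes), 84 between RKO and SW48 (54.5%, against 44.7%) and 87 between SW48 and HCT116 (56.5%, against 44.9%). These shares were below those of protein-coding genes with a mean of at least 5 given above. Opposite directions with at least a 2-fold difference of both genes were seen for PARD6G-AS1 and, between RKO and SW48, for GLIS3-AS1. The same direction with at least a 2-fold difference of both was seen for ZNF566-AS1 in all 3 comparisons. It was also seen for HAS2-AS1 in both comparisons with SW48. Between RKO and SW48 it was seen for SH3PXD2A-AS1, RBM12B-AS1 and UNC5B-AS1 (-1.22, with -1.70 for UNC5B).

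HAS2-AS1, singled out after its values were seen, belongs to a pair with a same-direction difference of at least 2-fold in both; HAS2 encodes a hyaluronan synthase. HAS2-AS1 was at 4.15 and 4.59 in untreated RKO, at 5.90 and 5.99 in untreated SW48 and at 4.60 and 4.76 in untreated HCT116. HAS2 was at 4.20 and 4.09 in untreated RKO, at 9.13 and 9.20 in untreated SW48 and at 4.42 and 4.34 in untreated HCT116. The RKO minus SW48 difference was -1.58 for HAS2-AS1 and -5.01 for HAS2, given as a description because HAS2-AS1 passed the threshold through SW48. RBM12B-AS1 and RBM12B, also of an RNA-binding protein, were higher in untreated RKO than in untreated SW48 by 1.15 and, for RBM12B, by 1.20 (adjusted p = 5.29e-07). SOCS2-AS1 and SOCS2, a suppressor of cytokine signalling, were lower in untreated SW48 than in untreated HCT116, with differences of -0.88 (adjusted p = 0.000153) and -0.65 (adjusted p = 0.000175).

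Several antisense RNAs whose sense gene had no named probe set were also line-dependent. DLGAP1-AS1 was lowest in RKO, at 5.33 and 5.17 untreated, against 7.34 and 7.29 in untreated SW48 and 8.13 and 8.16 in untreated HCT116. Its RKO minus HCT116 difference was -2.89 (adjusted p = 3.48e-08). ATP2A1-AS1, antisense to a calcium pump gene of muscle, was lowest in SW48 at 4.70 and 4.97, against 6.80 and 6.57 in untreated RKO and 7.49 and 7.46 in untreated HCT116 (SW48 minus HCT116 -2.64, adjusted p = 4.09e-08). NR2F1-AS1, antisense to the gene of an orphan nuclear receptor, was highest in HCT116 at 7.50 and 7.37, against 5.44 and 5.52 in untreated RKO and 5.55 and 5.52 in untreated SW48. RKO and SW48 did not differ beyond their spread for NR2F1-AS1 (-0.06, adjusted p = 0.762). RHPN1-AS1 was highest in RKO at 8.79 and 8.72, against 7.21 and 6.96 in untreated SW48 and 7.18 and 7.20 in untreated HCT116, and SW48 and HCT116 did not differ beyond their spread (-0.11, adjusted p = 0.341). RAB11B-AS1 was highest in SW48 at 6.86 and 6.61, against 4.97 and 4.65 in untreated RKO and 4.88 and 5.01 in untreated HCT116, and it passed the threshold through those SW48 arrays.

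Other antisense RNAs differed while the sense gene did not pass the test. SH3BP5-AS1 was higher in untreated RKO than in untreated HCT116 by 1.54 (adjusted p = 1.24e-05), and SH3BP5 differed by 0.0043 (adjusted p = 0.976). ZNF674-AS1 was higher in untreated RKO than in untreated HCT116 by 1.29 (adjusted p = 4.29e-06), and ZNF674 differed by -0.11 (adjusted p = 0.536). Untreated RKO minus untreated SW48 was 0.96 for ZNF674-AS1 and 0.12 for ZNF674. The starts of this pair also lie within 300 bases of each other. TMEM147-AS1 was lower in untreated RKO than in untreated HCT116 with a difference of -1.07 (adjusted p = 1.31e-06), and TMEM147 differed by 0.01 (adjusted p = 0.926). VPS9D1-AS1 was lower in untreated RKO than in untreated HCT116 with a called difference of -0.96, and VPS9D1 differed by -0.22 without a call. Between untreated SW48 and untreated HCT116 both were called in opposite directions, at -0.55 for VPS9D1-AS1 and 0.57 for VPS9D1. PAXIP1-AS2 was higher in untreated SW48 than in untreated HCT116 by 1.62 (adjusted p = 1.7e-08), and PAXIP1 differed by 0.14 (adjusted p = 0.079). GAS6-AS1 was lower in untreated SW48 than in untreated HCT116 with a difference of -0.86 (adjusted p = 9.61e-05), and GAS6 differed by -0.02 (adjusted p = 0.865). In the PAX8 pair, by contrast, both genes passed the test. PAX8-AS1 and PAX8, a transcription factor gene listed among the thyroid markers, were both lower in untreated RKO than in untreated HCT116. The differences were -1.48 (adjusted p = 1.24e-06) and -0.37 (adjusted p = 0.0109), the second lost without RKO untreated replicate 1 or HCT116 untreated replicate 1.

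DHRS4-AS1 was at 7.49 and 7.34 in untreated RKO, at 9.63 and 9.60 in untreated SW48 and at 8.59 and 8.60 in untreated HCT116. The RKO minus SW48 difference was -2.20 for DHRS4-AS1 (adjusted p = 3.79e-09), against 0.68 for the retinal reductase gene DHRS4 (adjusted p = 0.0353), a sense call lost without 3 single arrays (SW48 untreated replicate 1 or 2, or RKO untreated replicate 2). DHRS4 belongs to a family of near-identical copies, so its values are uncertain, and a further probe set of DHRS4-AS1 differed by -1.24 between these lines. GALNT9-AS1 was at 6.23 and 5.99 in untreated RKO, at 7.88 and 8.40 in untreated SW48 and at 6.81 and 6.72 in untreated HCT116, and GALNT9, of a glycosyltransferase family, differed by -0.43 between RKO and SW48 (adjusted p = 0.0178), a call lost without RKO untreated replicate 1 or SW48 untreated replicate 2.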

How the data were processed

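The values were deposited by the authors as 1 log2 expression value per probe set and array. GCOS is named in the submitters' processing notes; background correction, probe summarisation and normalisation are not stated in the labels or headers, nor is the log base, which was read as 2 from the range of the deposited values (2.22 to 13.45) and from near-equal array medians. Since the arrays had been brought to 1 scale, nothing was renormalised. Of 37270 probe sets 14530 had 1 gene symbol in the platform annotation, which can be old, none had several and 22740 had none; all 12 arrays were used, 0 columns were left out, and no 2 were identical. For each symbol the probe set with the highest mean was kept, and 12 members had more than 1. The dye field names Cy3, whereas the labelling text names biotin. The number of arrays limits the precision.

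limma 3.58.1 in R 4.3.3 was fitted to 6 group means of all 14118 genes, with 12 arrays sharing 1 estimate of the spread, and p-values were adjusted by Benjamini-Hochberg over all genes. Calls were made below an adjusted p of 0.05. Fold changes and standard errors come from the same fit, and the F test compared the 3 Nutlin-3a responses. The fit was tested on simulated data. The members and gene lists were chosen with earlier results of these data known. Named were, by rule, the called members of largest size in each comparison whose arrays did not overlap, the sense genes of largest called change, the members of highest mean and those next to the threshold. ZFX-AS1, PRKCQ-AS1 and IDI2-AS1 met this rule between untreated lines but are not described above. Alternatives were quantile normalisation, median centring, a filter on dim genes, a trended robust prior, the mean over probe sets, a replicate block, fits of the compared groups alone and leaving out each array. Promoter windows came from RefSeq (GRCh38.p14).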

Additional observations from a re-analysis of the deposited data

Results flagged for a closer look

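FAM222A-AS1 was singled out because its response to Nutlin-3a differed between the lines by the F test (adjusted p = 0.0464, limma). FAM222A-AS1 differed by -0.54 in RKO, 0.21 in SW48 and 0.13 in HCT116 on the log2 scale, with no overlap of Nutlin-3a and untreated arrays in any line. The call was lost in each of the 12 fits that left out 1 array, with median centring and with the replicate block (adjusted p = 0.133). Groups of 2 arrays are too small for a test of single outlying arrays.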

How the results depend on the processing

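No called gene named above reversed its direction under any alternative. The numbers of antisense RNAs and sense genes called between untreated lines stayed within 1.5 times of the reported numbers under every alternative. The numbers called with Nutlin-3a did not. Of all 14118 genes, the main fit called 285 in RKO, 441 in SW48, 721 in HCT116, 1520 for the mean effect and 71 by the F test. The labels do not say whether replicate numbers pair the arrays. Deviations of same-numbered Nutlin-3a and untreated arrays correlated at -0.06 in RKO, -0.04 in SW48 and 0.05 in HCT116, so no shared deviation was seen. With the replicate block 1 antisense RNA and 1 sense gene were called in RKO, 3 and 2 in SW48 and 4 and 2 in HCT116. For the mean effect 7 antisense RNAs were called and for the F test 0. Of all genes the block left 87 called in RKO, 218 in SW48, 357 in HCT116, 960 for the mean effect and 1 by the F test. With only the compared groups in the fit the numbers were 0 and 0 in RKO, 1 and 0 in SW48 and 3 and 2 in HCT116. Such fits called 31 of all genes in RKO, 115 in SW48 and 208 in HCT116. Testing only genes with a mean of at least 5 gave 7 antisense RNAs and 6 sense genes in RKO. It gave 14 sense genes in HCT116, 28 and 30 for the mean effect and 2 and 1 by the F test. Of the 10127 genes tested 4.66% were called in RKO, 9.49% in HCT116, 18.7% for the mean effect and 1.07% by the F test. A trended, robust prior gave 7 and 9 in RKO, 10 sense genes in SW48, 14 in HCT116 and 28 for the mean effect. By the F test it gave 4 and 3. Over all genes that prior called 760 in RKO, 870 in SW48, 1228 in HCT116, 2123 for the mean effect and 288 by the F test. For the F test quantile normalisation gave 2 and 1, median centring 0 and 1, and the mean over probe sets 2 antisense RNAs. Over all genes that test called 77, 55 and 70 in the same order. Leaving out each array in turn gave 0 to 1 antisense RNAs and 0 to 3 sense genes in RKO, 2 to 5 and 0 to 4 in SW48, 1 to 9 and 2 to 8 in HCT116, 9 to 14 and 12 to 14 for the mean effect, and 0 to 1 each for the F test. Between untreated lines it gave 72 to 88 and 58 to 71 for RKO against HCT116, 76 to 103 and 70 to 86 for RKO against SW48, and 94 to 112 and 69 to 88 for SW48 against HCT116. The cause of these shifts was not tested. Probe sets near the lower quartile of the arrays limit what falls can be seen.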
